A study of Mus musculus with 8 samples.

Results

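The 10 genes described here encode enzymes that make serine, glycine, proline and asparagine, together with the mitochondrial folate enzymes that carry the carbon unit released when serine becomes glycine. They are Phgdh, Psat1, Psph, Shmt1, Shmt2, Mthfd2, Mthfd1l, Aldh18a1, Pycr1 and Asns, taken by symbol from a deposited table of 18824 genes, and all 10 passed the filter on low counts, as did 14746 genes in all. They were measured by RNA sequencing of whole lung from 8-week-old mice in 2 groups of 4 libraries. KO_BLM lungs came from Slc15a3-/- mice and WT_BLM lungs from wild-type mice, and both groups were given bleomycin into the trachea (2 mg/kg in 50 µl saline, day 0) and lungs were taken on day 21. Bleomycin is a DNA-damaging drug that scars the lung, and Slc15a3 encodes a lysosomal transporter of histidine and small peptides. Saline-treated lungs were not analysed here, so a difference between the groups does not show which group departed from the uninjured state. The labels give no strain or sex, no details of how the Slc15a3 allele was made, and no statement that each library came from a separate animal, so each p-value is set against the spread between libraries, which may be technical.

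Glycine is the most frequent residue of collagen and proline is also abundant in it, so a cell that lays down scar matrix uses both in quantity. Phgdh, Psat1 and Psph act in sequence to turn a glycolytic intermediate into serine, and Shmt1 in the cytosol and Shmt2 in mitochondria turn serine into glycine. In mitochondria the released carbon passes through Mthfd2 and Mthfd1l and leaves as formate, which feeds nucleotide synthesis. Aldh18a1 and then Pycr1 turn glutamate into proline, and Asns makes asparagine from aspartate. Many of these genes are known targets of the transcription factor ATF4, which cells raise when amino acids run short, and ATF4 targets often hold the C/EBP-ATF response element in their promoters.

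Promoter sequences are shown for 5 of the 10 genes. These are 3 of the 4 whose RNA was lower in KO_BLM lungs (all but Phgdh) and the 2 that hold a match to the C/EBP-ATF core. The sequences are printed to be read beside the levels below. Each runs 5′ to 3′ on the gene's strand from 250 bases before to 50 bases after the RefSeq start site (build GRCm38.p6), which may not be the start used in lung. For Mthfd1l the RefSeq start used lies downstream of the first base of the gene span given below, so the window is that of a start inside the span. The starts used for Mthfd2 and Psph, whose windows were searched but are not printed, also lie inside their gene spans. The windows are chr19:15925010-15925309 on the minus strand for Psat1, chr10:3972825-3973124 on the plus strand for Mthfd1l, chr19:40588414-40588713 on the minus strand for Aldh18a1, chr11:120643699-120643998 on the minus strand for Pycr1 and chr6:7693160-7693459 on the minus strand for Asns. Capitals mark a match to TGATGNAA, the core of the C/EBP-ATF element, or to CACGTG, the E-box bound by MYC and related factors.
Psat1: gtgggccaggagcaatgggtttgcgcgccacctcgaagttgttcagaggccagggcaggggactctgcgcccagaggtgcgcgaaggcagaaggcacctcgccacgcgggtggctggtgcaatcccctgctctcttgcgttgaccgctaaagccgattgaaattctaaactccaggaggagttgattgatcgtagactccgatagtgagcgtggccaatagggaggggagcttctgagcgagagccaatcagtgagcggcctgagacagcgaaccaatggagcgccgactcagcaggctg
Mthfd1l: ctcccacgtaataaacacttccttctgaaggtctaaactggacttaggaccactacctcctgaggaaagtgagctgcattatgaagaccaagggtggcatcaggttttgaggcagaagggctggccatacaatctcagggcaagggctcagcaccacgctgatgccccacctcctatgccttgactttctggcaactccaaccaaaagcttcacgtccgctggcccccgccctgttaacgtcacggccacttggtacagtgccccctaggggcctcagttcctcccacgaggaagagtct
Aldh18a1: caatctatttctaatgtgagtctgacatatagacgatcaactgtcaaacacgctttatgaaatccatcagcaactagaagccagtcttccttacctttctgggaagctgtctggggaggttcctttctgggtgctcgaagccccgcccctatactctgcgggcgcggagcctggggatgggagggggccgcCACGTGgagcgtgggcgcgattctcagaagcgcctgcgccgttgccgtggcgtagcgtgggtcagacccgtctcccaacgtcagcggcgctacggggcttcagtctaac
Pycr1: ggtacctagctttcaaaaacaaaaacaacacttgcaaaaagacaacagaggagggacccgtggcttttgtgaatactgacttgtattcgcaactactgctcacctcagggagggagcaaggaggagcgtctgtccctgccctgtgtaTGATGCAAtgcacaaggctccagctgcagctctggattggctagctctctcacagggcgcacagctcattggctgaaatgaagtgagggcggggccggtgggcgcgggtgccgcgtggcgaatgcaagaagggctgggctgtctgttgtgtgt
Asns: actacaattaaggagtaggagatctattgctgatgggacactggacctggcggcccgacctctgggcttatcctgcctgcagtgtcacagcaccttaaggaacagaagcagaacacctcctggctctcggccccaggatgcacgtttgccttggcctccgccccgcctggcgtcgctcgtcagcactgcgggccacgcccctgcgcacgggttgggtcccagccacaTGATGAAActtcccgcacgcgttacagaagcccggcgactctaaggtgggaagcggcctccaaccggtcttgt
Both strands of all 10 promoters were searched. TGATGNAA was present in 2 of the 10, Pycr1 and Asns, and in 3.97% of the 32851 promoters in the RefSeq table. Its first base lay 103 bases before the start of Pycr1 and 23 bases before the start of Asns. CACGTG was present in 1 of the 10, Aldh18a1, where it began 59 bases before the start, and in 7.15% of all promoters. The Psat1 and Mthfd1l windows held neither set of letters, nor did that of Phgdh, which is not printed. This says nothing of sites elsewhere or of other spellings.

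Library totals were 17627999 to 18471445 counts in KO_BLM and 18878835 to 20180831 in WT_BLM. Slc15a3 itself had 8, 5, 18 and 15 counts in KO_BLM lungs, against 935, 1124, 974 and 841 counts in WT_BLM lungs, so few reads were assigned to it in the libraries labelled as knockout. An exon of Slc15a3 overlaps one of Tmem132a on the opposite strand. Levels are counts scaled to a common library size (CPM). Read counts were compared with edgeR's quasi-likelihood test, and a gene was called where its Benjamini-Hochberg adjusted p over all tested genes was below 0.05. By that rule 41.5% of all tested genes were called, 20.7% higher and 20.8% lower in KO_BLM, so the 2 groups differed over a large part of the transcriptome. With library totals alone as the scaling, 62.7% of the calls were higher in KO_BLM, against 50.0% in the main test. Markers of several cell types also differed. The summed level of 8 myofibroblast and activated fibroblast markers was 886 to 1042 CPM in KO_BLM and 2096 to 2367 CPM in WT_BLM, and all 8 were lower. All 8 macrophage markers were lower as well, with sums of 535 to 1188 CPM in KO_BLM and 1995 to 2279 CPM in WT_BLM, whereas all 9 lymphocyte markers, 6 of 7 alveolar type 2 markers and all 5 ciliated cell markers were higher. Of 7 resident fibroblast markers 5 were higher and 1 lower, with sums of 2879 to 4361 CPM in KO_BLM and 1640 to 2251 CPM in WT_BLM. Of 5 endothelial markers 4 were higher, and 2 without WT_BLM replicate 3. No marker in these lists was at 0 in every library. In whole lung, fewer cells of a type and less RNA per cell cannot be told apart, and the part of cell makeup in any level below was not tested.

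Of the 10 genes, 4 were lower in KO_BLM and none higher, which is 40% called against 41.5% of all tested genes, and 40% lower against 20.8%. The 4 were Mthfd1l, Psat1, Phgdh and Aldh18a1. For 3 of them, all but Aldh18a1, every KO_BLM library lay below every WT_BLM library, as was so for 20.7% of all tested genes (40.9% separated in either direction). The log2 fold change of KO_BLM over WT_BLM was negative for 8 of the 10, with a median of -0.43, against 0.0025 over all tested genes. A single library weighed heavily on the rest. Without WT_BLM replicate 4, 7 of the 10 were lower in KO_BLM, with Shmt2, Mthfd2 and Pycr1 added, against 19.4% of all tested genes. This omission, 1 of 8 that were run, is singled out because it moved the number most, so it is no separate support. The check for outlying libraries, given at the end, flagged WT_BLM replicate 4 for none of the 10 genes. Omission of KO_BLM replicate 1, 2 or 3 or of WT_BLM replicate 1, 2 or 3 instead lost the call of Aldh18a1. Over all single omissions the number lower ran from 3 to 7.

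**Figure D1:**
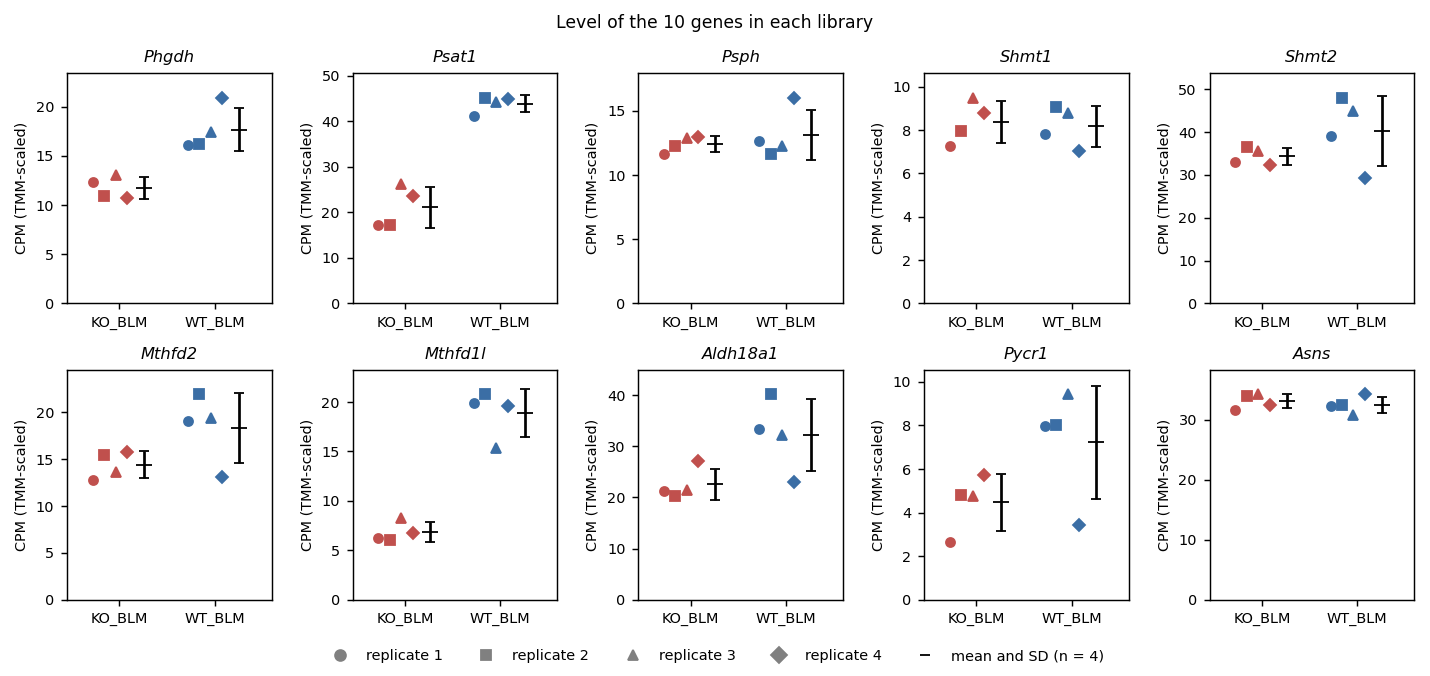
Each panel plots 1 gene's level in CPM for the 4 KO_BLM (left) and 4 WT_BLM (right) libraries, with points for libraries and a black mark with error bars for the mean ± SD. The groups separate for Phgdh, Psat1 and Mthfd1l, whose highest KO_BLM libraries (13.1, 26.3 and 8.29 CPM) lie below their lowest WT_BLM libraries (16.2, 41.1 and 15.3 CPM), and the groups overlap in the other 7 panels.

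The serine branch did not move as a block. Phgdh encodes phosphoglycerate dehydrogenase, the entry enzyme of the branch (chr3:98313171-98339969, RefSeq GRCm38.p6). It had 12.3, 10.9, 13.1 and 10.7 CPM in the 4 KO_BLM libraries, against 16.2, 16.3, 17.4 and 20.9 CPM in the 4 WT_BLM libraries. The groups did not overlap, and the highest level was in WT_BLM replicate 4. Mean levels were 11.8 ± 1.13 CPM in KO_BLM and 17.7 ± 2.22 CPM in WT_BLM (SD, n = 4 each), a log2 fold change of -0.59 with a standard error (SE) of 0.12 (edgeR adjusted p = 0.00483), or 1.50-fold lower.

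Psat1 encodes phosphoserine aminotransferase, the second enzyme (chr19:15905123-15925059), whose promoter is printed above. It had 17.3, 17.2, 26.3 and 23.5 CPM in KO_BLM, against 41.1, 45.1, 44.2 and 44.9 CPM in WT_BLM. The WT_BLM libraries were close together and the KO_BLM libraries less so, with replicates 3 and 4 above replicates 1 and 2. Means were 21.1 ± 4.54 CPM in KO_BLM and 43.8 ± 1.85 CPM in WT_BLM, a log2 fold change of -1.06 ± 0.14 (SE; adjusted p = 0.000466 by edgeR), or 2.08-fold lower. Both Phgdh and Psat1 kept this direction and call under all 19 alternatives that were run.

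Psph, the phosphatase that completes serine synthesis, had 11.6, 12.3, 12.9 and 12.9 CPM in KO_BLM and 12.6, 11.7, 12.3 and 16.0 CPM in WT_BLM. Apart from WT_BLM replicate 4, all libraries lay within the same narrow band. Its log2 fold change was -0.08 ± 0.13 (SE; adjusted p = 0.632 by edgeR), and the 95% interval of the fold, KO_BLM over WT_BLM, ran from 0.780 to 1.15. Without WT_BLM replicate 4 the estimate had the opposite sign, at 0.03. An exon of Psph overlaps one of Cct6a on the opposite strand, and the strand setting of the counting is not given in the sources used here.

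Neither of the 2 enzymes that make glycine from serine was called with all libraries. Cytosolic Shmt1 had 7.27, 7.98, 9.49 and 8.81 CPM in KO_BLM and 7.81, 9.08, 8.79 and 7.03 CPM in WT_BLM. The groups overlapped over nearly their whole ranges, the log2 fold change was 0.04 ± 0.14 (SE; adjusted p = 0.854 by edgeR), and the 95% interval of the fold was 0.823 to 1.28. Without WT_BLM replicate 4 it was -0.03 and without KO_BLM replicate 3 also -0.03.

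Mitochondrial Shmt2 had 33.0, 36.4, 35.7 and 32.3 CPM in KO_BLM, against 39.0, 48.0, 44.9 and 29.2 CPM in WT_BLM. WT_BLM replicate 4 was the lowest of all 8 libraries, while the other 3 WT_BLM libraries lay above every KO_BLM library. With all libraries the means were 34.4 ± 2.03 CPM in KO_BLM and 40.3 ± 8.28 CPM in WT_BLM, and the log2 fold change of -0.23 (SE 0.14) did not pass the test (edgeR adjusted p = 0.212). Without WT_BLM replicate 4 it was -0.36 and passed (edgeR adjusted p = 0.0146, against 0.0146 to 0.612 over all alternatives). Exons of Shmt1 and Shmt2 overlap exons of Smcr8 and Ndufa4l2 on the opposite strand.

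Of all 10 genes, Mthfd1l had the largest fold change. It encodes the mitochondrial enzyme that releases formate (chr10:3972892-4167081). It had 6.28, 6.03, 8.29 and 6.73 CPM in KO_BLM, against 19.9, 20.8, 15.3 and 19.6 CPM in WT_BLM. The lowest WT_BLM library was still well above the highest KO_BLM library, and both of these were replicate 3. Means were 6.83 ± 1.01 CPM in KO_BLM and 18.9 ± 2.43 CPM in WT_BLM, a log2 fold change of -1.47 ± 0.15 (SE; adjusted p = 0.000101 by edgeR), or 2.76-fold lower. The call held under all 19 alternatives.

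Mthfd2, the dehydrogenase and cyclohydrolase that acts just before Mthfd1l, had 12.8, 15.4, 13.7 and 15.8 CPM in KO_BLM, against 19.0, 21.9, 19.3 and 13.1 CPM in WT_BLM. Here too WT_BLM replicate 4 fell inside the KO_BLM range and the other 3 WT_BLM libraries lay above it. The log2 fold change was -0.35 ± 0.16 (SE; adjusted p = 0.0998 by edgeR) with all libraries and -0.48 (edgeR adjusted p = 0.00984) without WT_BLM replicate 4. Limma-voom with quality weights, which gives less weight to libraries that vary more, gave -0.40 (adjusted p = 0.0159), against adjusted p of 0.00984 to 0.341 over all alternatives.

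Aldh18a1, which encodes the first enzyme of proline synthesis from glutamate (chr19:40550257-40588463), had 21.3, 20.4, 21.5 and 27.1 CPM in KO_BLM and 33.4, 40.2, 32.1 and 23.1 CPM in WT_BLM. KO_BLM replicate 4 stood above the other KO_BLM libraries and WT_BLM replicate 4 below the other WT_BLM libraries, and these 2 overlapped. Means were 22.6 ± 3.04 CPM in KO_BLM and 32.2 ± 7.03 CPM in WT_BLM, a log2 fold change of -0.51 ± 0.16 (SE; adjusted p = 0.0288 by edgeR), or 1.43-fold lower. The call was lost in 11 of 19 alternatives, among them each omission of KO_BLM replicate 1, 2 or 3 or of WT_BLM replicate 1, 2 or 3. Across the 8 omissions of a library the log2 fold change was -0.65 to -0.39, and across all alternatives the adjusted p was 0.00124 to 0.138.

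Pycr1, the mitochondrial pyrroline-5-carboxylate reductase that completes proline synthesis, had the lowest mean level in WT_BLM of the 10 genes per transcript length. It had 2.64, 4.80, 4.74 and 5.74 CPM in KO_BLM, against 7.97, 8.03, 9.43 and 3.43 CPM in WT_BLM. Again 3 WT_BLM libraries lay above all KO_BLM libraries and WT_BLM replicate 4 lay among them. With all libraries the log2 fold change was -0.69 ± 0.32 (SE; adjusted p = 0.11 by edgeR), and it was -0.92 (edgeR adjusted p = 0.0146) without WT_BLM replicate 4. Limma-voom gave -0.88 (adjusted p = 0.0141), and the range of adjusted p over all alternatives was 0.0141 to 0.261.

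Asns, a textbook ATF4 target whose promoter holds the C/EBP-ATF core printed above, had 31.7, 33.9, 34.3 and 32.5 CPM in KO_BLM and 32.3, 32.5, 30.9 and 34.3 CPM in WT_BLM. The groups overlapped over nearly their whole ranges, and of the 10 genes it had the smallest SE. Its log2 fold change was 0.03 ± 0.07 (SE; adjusted p = 0.786 by edgeR), and the 95% interval of the fold was 0.910 to 1.14, so a change as large as that of Phgdh lay outside it.

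**Figure D2:**
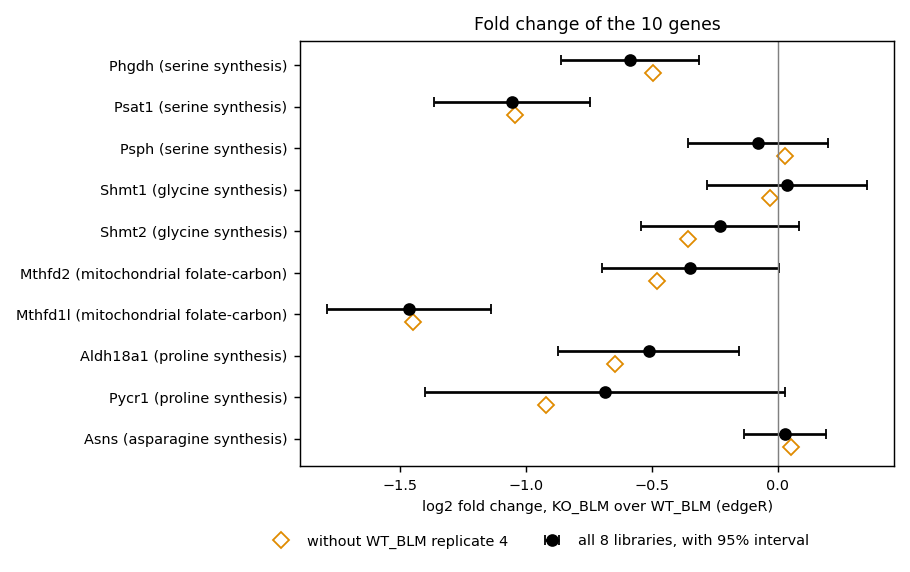
Filled points with bars give the log2 fold change of KO_BLM over WT_BLM for each of the 10 genes and its 95% interval over all 8 libraries, open diamonds give it without WT_BLM replicate 4, and the vertical line marks 0. Mthfd1l (-1.47) and Psat1 (-1.06) lie farthest from 0, Asns (0.03) and Shmt1 (0.04) lie at it, and Pycr1 is at -0.92 without WT_BLM replicate 4, against -0.69 with all libraries.

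WT_BLM replicate 4 was low for some of the 10 genes and not for others. Relative to the mean of the other 3 WT_BLM libraries it had 0.405 of the Pycr1 level, 0.650 of Mthfd2, 0.655 of Aldh18a1, 0.664 of Shmt2 and 0.821 of Shmt1. For Psat1 the ratio was 1.03, for Mthfd1l 1.05, for Asns 1.07, for Phgdh 1.26 and for Psph 1.31. The same library lay at an end of the WT_BLM range in several marker sums. The check for outlying libraries, given at the end, flagged it in none of the sums named here. WT_BLM replicate 4 was the lowest WT_BLM library for lymphocyte markers (30.5 CPM, with the others at 43.3 to 91.5 CPM), ciliated markers (117 CPM, with the others at 166 to 187 CPM) and endothelial markers (1472 CPM, with the others at 1593 to 2027 CPM). It was the highest for macrophage, alveolar type 2 and resident fibroblast markers. It was also the lowest for markers of proliferating cells. The sum of 10 such markers was 86.5, 88.7, 104 and 137 CPM in KO_BLM and 164, 264, 191 and 108 CPM in WT_BLM, the last being replicate 4. In KO_BLM the highest sum was in replicate 4. That library was also the highest of its group for Aldh18a1, Mthfd2, Pycr1 and Psph but the lowest for Shmt2 and Phgdh. Of the 10 markers 7 were lower in KO_BLM, with 9 lower without WT_BLM replicate 4 and 4 lower without KO_BLM replicate 1, KO_BLM replicate 2, WT_BLM replicate 2 or WT_BLM replicate 3. The part of any of these cell types in the levels of the 10 genes was not tested.

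**Figure D3:**
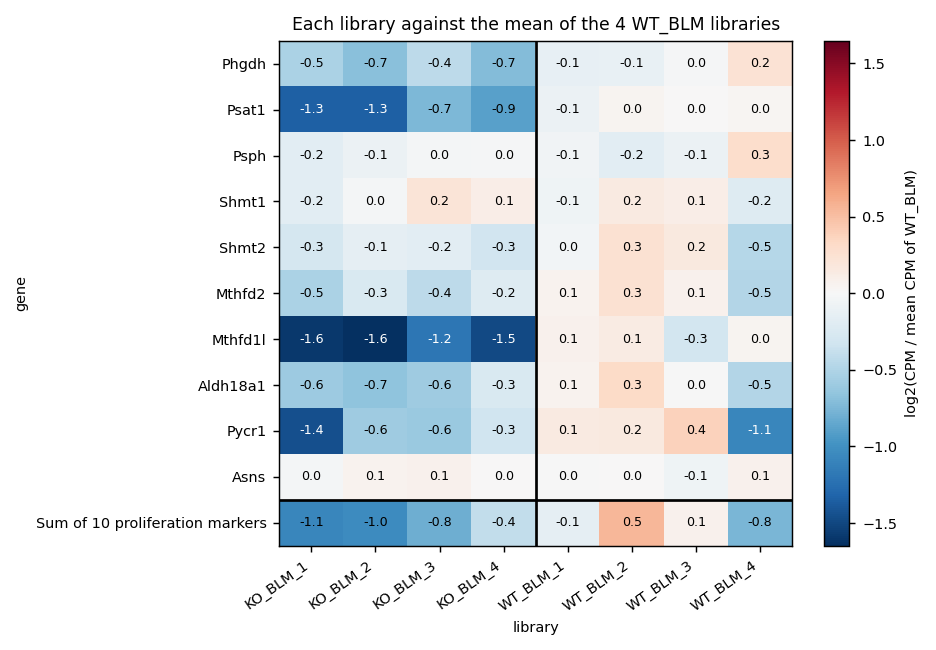
Each column is a library, KO_BLM on the left and WT_BLM on the right, each row is 1 of the 10 genes or, at the bottom, the sum of 10 proliferation markers, and colour and printed values give the log2 of the library's CPM over the row's mean in WT_BLM. WT_BLM replicate 4 is low for Pycr1, Mthfd2, Aldh18a1 and Shmt2 (0.405 to 0.664 of the mean of the other WT_BLM libraries) and not for Psat1 or Mthfd1l (1.03 and 1.05).

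Levels of different genes were compared per transcript length, as the FPKM the authors deposited (fragment counts scaled to transcript length and library total). In KO_BLM the order of mean FPKM was Shmt2 15.4, Asns 14.4, Psat1 8.75, Aldh18a1 6.73, Phgdh 6.48, Mthfd2 6.28, Psph 4.18, Shmt1 2.83, Pycr1 1.63 and Mthfd1l 1.57. In WT_BLM it was Psat1 17.1, Shmt2 17.0, Asns 13.3, Phgdh 9.16, Aldh18a1 9.07, Mthfd2 7.55, Psph 4.15, Mthfd1l 4.09, Shmt1 2.60 and Pycr1 2.48. Psat1 thus stood behind Shmt2 and Asns in KO_BLM and at the top in WT_BLM, and Mthfd1l stood below Pycr1 in KO_BLM and above it in WT_BLM. Neighbours whose ranges overlapped, and which have no firm order, were Shmt2 with Asns, Psat1 with Aldh18a1, Aldh18a1 with Phgdh, Phgdh with Mthfd2, and Pycr1 with Mthfd1l in KO_BLM. In WT_BLM these were Psat1 with Shmt2, Shmt2 with Asns, Phgdh with Aldh18a1, Aldh18a1 with Mthfd2, Psph with Mthfd1l, and Shmt1 with Pycr1.

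Shmt2 and Mthfd2 each have a close relative, and the ratio of the paired FPKM values was compared per library by a 2-sided exact permutation test over 70 arrangements, which cannot go below p = 0.0286. The ratio of Shmt2 to Shmt1 was 5.48 ± 0.645 in KO_BLM and 6.49 ± 0.667 in WT_BLM (exact p = 0.0857, adjusted over the 3 ratios computed 0.171). The ratio of Mthfd2 to Mthfd2l was 2.37 ± 0.302 in KO_BLM and 2.57 ± 0.708 in WT_BLM (exact p = 0.743, adjusted 0.743). Neither ratio passed the test. Mthfd2l had a log2 fold change of -0.26 (edgeR adjusted p = 0.142).

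The genes around these pathways were read from lists of proline and glutamate metabolism, serine and glycine use, the rest of the folate cycle, asparagine breakdown, ATF4 signalling and aminoacyl-tRNA synthetases. Of 81 such genes that could be tested, KO_BLM had higher levels of 15 and lower levels of 26, or 50.6% called against 41.5% of all tested genes and 32.1% lower against 20.8%. Where genes below are named beyond the 3 with the smallest p of each list and the set relatives, they were chosen after their values were seen; these are Prodh, Cbs, Srr, Dld, Gldc, Tyms, Ddit3 and P4ha1.

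**Figure D4:**
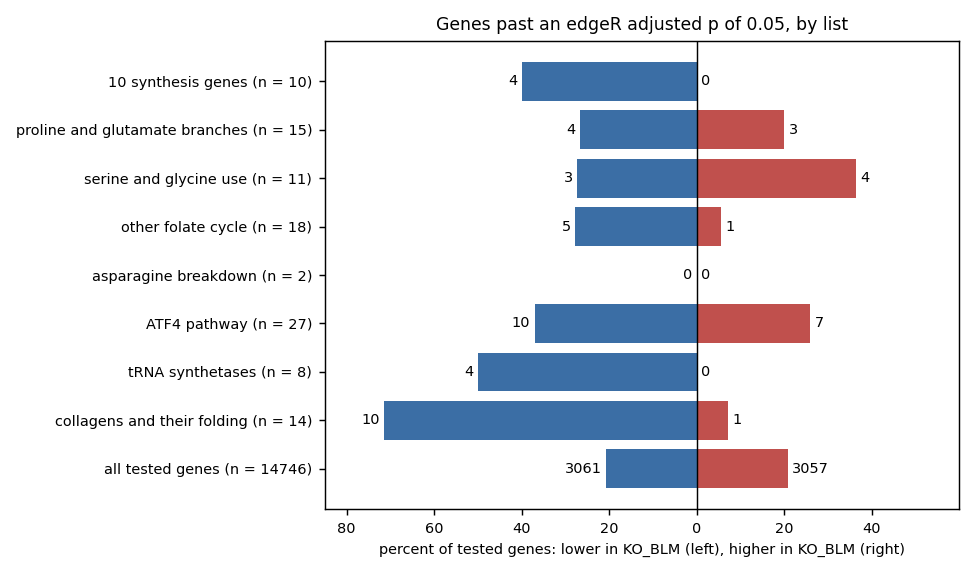
Bars give, for each list of genes, the percent of its tested genes that were lower (left) or higher (right) in KO_BLM by the edgeR test, with the number of genes at the end of each bar, and the bottom bar gives all tested genes (20.8% lower and 20.7% higher). Collagen chains and prolyl hydroxylases have 71.4% lower, while among the 10 synthesis genes 40% are lower and none higher.

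In proline and glutamate metabolism, 3 of 15 tested genes were higher and 4 lower, with a median log2 fold change of 0.01. That is 46.7% called against 41.5% of all tested genes, and 26.7% lower against 20.8%. The pair that breaks proline down in mitochondria was higher. Prodh, which oxidises proline, had 24.4, 25.8, 21.9 and 18.2 CPM in KO_BLM, against 13.7, 14.6, 14.5 and 18.1 CPM in WT_BLM. The groups did not overlap, by a narrow margin between the replicates 4, and the log2 fold change was 0.57 ± 0.14 (SE; adjusted p = 0.00875 by edgeR). Aldh4a1, which turns the product into glutamate, averaged 48.2 ± 4.01 CPM in KO_BLM and 29.0 ± 4.88 CPM in WT_BLM (log2 fold change 0.73, edgeR adjusted p = 0.00184). Aldh18a1, which starts the synthesis, was lower in KO_BLM, but its groups overlapped and its call was lost in 11 of 19 alternatives.

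Gpt, an alanine aminotransferase that links glutamate to pyruvate, was 3.90-fold higher, with 37.5 ± 10.4 CPM in KO_BLM and 9.62 ± 1.89 CPM in WT_BLM (edgeR adjusted p = 0.000172). Arg1, the arginase that yields ornithine, from which proline can also be made, had 1.54, 1.56, 6.46 and 6.94 CPM in KO_BLM, against 38.3, 37.9, 53.9 and 91.7 CPM in WT_BLM. Every KO_BLM library was far below every WT_BLM library, with a log2 fold change of -3.74 ± 0.50 (SE; adjusted p = 0.000521 by edgeR). Arg1 is also known in the mouse as a gene of alternatively activated macrophages, whose general markers were lower in KO_BLM, as given above.

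Of 11 tested genes of serine and glycine use, 4 were higher and 3 lower. That is 63.6% called against 41.5% of all tested genes, and 27.3% lower against 20.8%. The number lower was 1 without KO_BLM replicate 1, 2 or 3 or without WT_BLM replicate 1 or 3. Cbs and Cth, the enzymes that pass serine's carbon skeleton into cysteine, were both higher, with log2 fold changes of 0.91 (edgeR adjusted p = 0.00601) and 1.22 (edgeR adjusted p = 0.00151). Cth had 8.48, 7.09, 5.68 and 5.84 CPM in KO_BLM, against 2.75, 2.48, 3.70 and 2.72 CPM in WT_BLM, with no overlap. Srr, which turns L-serine into D-serine, was higher by 0.55 on the log2 scale (edgeR adjusted p = 0.00245).

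In the glycine cleavage system, which breaks glycine down in mitochondria, 1 of 3 tested components was higher and 1 lower. Amt, its aminomethyltransferase, averaged 11.8 ± 1.23 CPM in KO_BLM and 4.66 ± 1.57 CPM in WT_BLM (log2 fold change 1.34, edgeR adjusted p = 0.00205). Gcsh, its lipoyl carrier protein, averaged 17.7 ± 1.60 CPM in KO_BLM and 26.2 ± 0.974 CPM in WT_BLM (log2 fold change -0.56, edgeR adjusted p = 0.00149). Neither gene's groups overlapped. Dld, the dehydrogenase that the system shares with other complexes, was not called (log2 fold change -0.09, edgeR adjusted p = 0.535). Gldc, the decarboxylase, was too low to be tested, with 9, 3, 14 and 6 counts in KO_BLM and 23, 8, 8 and 21 counts in WT_BLM.

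In the rest of the folate cycle, 1 of 18 tested genes was higher and 5 were lower. That is 33.3% called against 41.5% of all tested genes, and 27.8% lower against 20.8%. Aldh1l2, a mitochondrial enzyme that oxidises formyl-folate and so draws on the pool that Mthfd1l uses, had 1.16, 1.28, 1.04 and 1.77 CPM in KO_BLM, against 6.43, 5.65, 5.84 and 6.05 CPM in WT_BLM. It was 4.54-fold lower (-2.18 ± 0.21 on the log2 scale, SE; adjusted p = 7.17e-05 by edgeR), a larger fold than that of Mthfd1l. The folate carriers Folr2 (log2 fold change -1.21, edgeR adjusted p = 0.0012) and Slc19a1 (-0.57, edgeR adjusted p = 0.0134) were lower as well. Folr2 is also known as a marker of a macrophage subset.

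Mthfd1, the cytosolic enzyme that takes up the formate made by Mthfd1l, was the gene that was higher, with 120, 105, 108 and 89.2 CPM in KO_BLM, against 83.3, 71.5, 79.0 and 91.2 CPM in WT_BLM. The replicates 4 of both groups were close to each other and the remaining libraries separated. Its log2 fold change was 0.38 (edgeR adjusted p = 0.0199), and the adjusted p was 0.0543 without KO_BLM replicate 1 and 0.0507 without WT_BLM replicate 2. Tyms, the thymidylate synthase of dividing cells, was lower, with a log2 fold change of -0.62 (edgeR adjusted p = 0.0168). The call was lost in the 3 alternatives that used limma on log2 FPKM values (adjusted p = 0.0626 to 0.0821). Tyms was lowest of its group in WT_BLM replicate 4, at 0.667 of the mean of the other WT_BLM libraries, as were Pycr1 and Mthfd2.

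The 2 tested genes of asparagine breakdown were not called. Aspg had a log2 fold change of -0.75 (edgeR adjusted p = 0.103), which passed without WT_BLM replicate 2 (-0.95, edgeR adjusted p = 0.0374, against 0.0374 to 0.341 over all alternatives), and Asrgl1 one of 0.20 (edgeR adjusted p = 0.225).

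Genes on the ATF4 list, which mixes pathway genes with targets, did not all differ in 1 direction in RNA. Atf4 itself had 214, 200, 161 and 180 CPM in KO_BLM and 234, 221, 209 and 235 CPM in WT_BLM. Only the highest KO_BLM library overlapped the WT_BLM range, and the log2 fold change was -0.25 ± 0.10 (SE; adjusted p = 0.0648 by edgeR). It passed with DESeq2 (adjusted p = 0.0476) and without KO_BLM replicate 1 (edgeR adjusted p = 0.0352), within a range of 0.0352 to 0.156 over all alternatives. ATF4 is controlled largely at translation, so its RNA level says little about its protein. Of 27 tested genes of the ATF4 list, 7 were higher and 10 lower, with a median of -0.25. That is 63% called against 41.5% of all tested genes, and 37% lower against 20.8%. The log2 fold change was negative for 19 of the 27. The number higher was 4 without KO_BLM replicate 1, KO_BLM replicate 4 or WT_BLM replicate 4, and 3 without KO_BLM replicate 2 or WT_BLM replicate 1.

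Slc7a5, the large neutral amino acid transporter, had 12.8, 12.8, 17.8 and 12.8 CPM in KO_BLM, against 57.1, 46.4, 48.6 and 62.6 CPM in WT_BLM. No libraries overlapped, and it was 3.81-fold lower (-1.93 ± 0.14 on the log2 scale, SE; adjusted p = 1.85e-05 by edgeR). Eif4ebp1, a brake on cap-dependent translation, and Ddit4, an inhibitor of mTORC1, were lower too, with log2 fold changes of -0.66 (edgeR adjusted p = 0.000302) and -1.78 (edgeR adjusted p = 0.000324). Ddit3, which encodes the stress factor CHOP, was higher, with 24.9 ± 2.93 CPM in KO_BLM and 17.2 ± 3.49 CPM in WT_BLM (log2 fold change 0.53, edgeR adjusted p = 0.0187). The Ddit3 groups overlapped, with 21.0 CPM in the lowest KO_BLM library and 21.7 CPM in the highest WT_BLM library. Of some genes known as ATF4 targets, Psat1, Slc7a5 and Eif4ebp1 were lower, Asns did not differ detectably and Ddit3 was higher. These do not stand for the whole ATF4 list, where 7 of 27 tested genes were higher and 10 lower. Ddit3 was chosen after its values were seen, and the part of ATF4 in any of these levels was not tested.

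Of 8 aminoacyl-tRNA synthetases, 4 were lower and none higher. That is 50% called against 41.5% of all tested genes, and 50% lower against 20.8%. Gars, which charges glycine onto its tRNA, averaged 85.9 ± 4.69 CPM in KO_BLM and 128 ± 13.7 CPM in WT_BLM (log2 fold change -0.57, edgeR adjusted p = 0.00128). Nars, for asparagine, and Aars, for alanine, had log2 fold changes of -0.34 (edgeR adjusted p = 0.0044) and -0.38 (edgeR adjusted p = 0.00716).

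Genes of collagen chains, which are rich in glycine and proline, and of the enzymes that modify and fold them were mostly lower. Of 14 tested, 10 were lower and 1 higher in KO_BLM, with a median log2 fold change of -1.03, against -0.43 for the 10 synthesis genes. That is 78.6% called against 41.5% of all tested genes, and 71.4% lower against 20.8%. Col1a1, the main chain of fibrillar collagen, averaged 441 ± 25.8 CPM in KO_BLM and 2427 ± 291 CPM in WT_BLM (log2 fold change -2.46, edgeR adjusted p = 1.35e-06). Col5a1, a chain of the collagen that nucleates fibrils, and P4ha3, a prolyl hydroxylase subunit, had log2 fold changes of -2.38 and -3.05 (edgeR adjusted p = 9.36e-07 for each). P4ha1, another prolyl hydroxylase subunit, was the gene that was higher, with 122 ± 22.0 CPM in KO_BLM and 72.4 ± 10.8 CPM in WT_BLM (log2 fold change 0.75, edgeR adjusted p = 0.00362). The myofibroblast markers were lower together with the collagens, with the sums given above, and their part in the levels of Psat1, Phgdh and Mthfd1l was not tested.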

How the data were processed

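The deposited table gives unnormalized counts by gene symbol and, beside them, FPKM. Every FPKM value the authors deposited (100%, tolerance 1e-06) was its count over column total and 1 gene length, so the 2 units hold the same measurement. Per the submitters' processing notes, Trimmomatic, HTSeq, Cufflinks and DESeq were used, with the mm10 build and no version or role. The sources used here give no aligner, annotation or strand setting. Per the labels' protocols, libraries came from a stranded TruSeq mRNA kit.

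Groups and replicate numbers came from sample titles, and columns named PHT2_KO_BLM were matched to the Slc15a3 knockout titles, PHT2 being another name of that protein. Counts were tested with edgeR 4.0.16 in R 4.3.3 (TMM, filterByExpr with a minimum count of 10 and a minimum total of 15, robust quasi-likelihood fit, KO_BLM over WT_BLM, Benjamini-Hochberg adjustment over 14746 genes). CPM used TMM-scaled totals. No row lacked a gene name, and no pair of libraries within a group agreed within sampling noise. Alternatives used DESeq2 1.42.0, limma 3.58.1 on log2(FPKM + 1) or log2(FPKM + 0.1), limma-voom, other scalings and filters, a replicate block and each library left out. In simulated counts, the share of false calls with robust estimation was above the nominal level, so a fit without it was added after seeing the data. The 10 genes and all lists were chosen with earlier results of these data known. Named were all 10 genes, up to 3 genes with the smallest p in each list, Mthfd2l, Mthfd1, Atf4 and Slc15a3, and the exceptions stated; a few results are not reported here. Coordinates and promoters came from RefSeq GRCm38.p6 (all 10 matched) and exon overlaps from GENCODE M21 of the same build.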

Additional observations from a re-analysis of the deposited data

Results flagged for a closer look

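Among 108 groups of 4 values checked for a library far from the rest (Dixon's ratio at its 95% critical value), 5 were flagged, and chance flags about 1 in 20. Aldh18a1 was at 27.06 CPM in KO_BLM replicate 4, with the other KO_BLM libraries at 20.37 to 21.48 CPM. Slc7a5 was at 17.83 CPM in KO_BLM replicate 3, with the others at 12.78 to 12.84 CPM. Eif4ebp1 was at 80.71 CPM in WT_BLM replicate 4, with the other WT_BLM libraries at 70.08 to 70.72 CPM. The summed lymphocyte markers were at 309.9 CPM in KO_BLM replicate 3, with the others at 196.6 to 212.0 CPM. The summed markers of liver cells, which lung should lack, were at 3.377 CPM in WT_BLM replicate 4, with the other WT_BLM libraries at 0.4822 to 0.6049 CPM. In KO_BLM this sum was 1.897 to 6.308 CPM, so each KO_BLM library was above those 3 WT_BLM libraries and 2 of them were above WT_BLM replicate 4.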

How the results depend on the processing

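Phgdh, Psat1, Mthfd1l and Asns kept direction and call under all 19 alternatives. Leaving out each library in turn gave 3 to 7 of the 10 genes lower in KO_BLM and 0 to 0 higher (7 lower without WT_BLM replicate 4), 2316 to 2957 genes higher and 2178 to 2896 lower over all tested genes, and 11 to 16 higher and 20 to 28 lower among the linked genes. Limma on log2(FPKM + 1) gave 1983 genes lower and on log2(FPKM + 0.1) 1976, with 17 linked genes lower in each. Without robust estimation 3060 genes were higher and 3062 lower, and 4 of the 10 genes were lower.

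Aldh18a1 lost its call with library totals alone (log2 fold change -0.43, adjusted p = 0.0806), with limma on log2(FPKM + 1) (-0.36, adjusted p = 0.103, or 0.138 with no filter on low values) and log2(FPKM + 0.1) (-0.40, adjusted p = 0.105), and with a replicate block (-0.50, adjusted p = 0.0715). Its estimates with a library left out were -0.65 to -0.39, those of Shmt2 -0.36 to -0.14, of Mthfd2 -0.48 to -0.25 and of Pycr1 -0.92 to -0.50. Limma-voom called Mthfd2 (-0.40) and Pycr1 (-0.88). Psph turned sign with library totals alone (0.011), limma on log2(FPKM + 1) with or without the filter (0.012 each) and on log2(FPKM + 0.1) (0.015), and ran from -0.14 to 0.026 with a library left out, positive without WT_BLM replicate 4. Shmt1 turned sign with limma-voom (-0.052) and ran from -0.031 to 0.10 with a library left out, negative without KO_BLM replicate 3 (-0.026) or WT_BLM replicate 4. The log2 ratio of Mthfd2 to Mthfd2l, KO_BLM minus WT_BLM, ran from -0.31 to 0.026 with a library left out, positive without WT_BLM replicate 2 or replicate 3 (0.0096). Dld turned sign with library totals alone (0.0048) and with limma on log2(FPKM + 1) with or without the filter (8.4e-05 each). The cause of these shifts was not tested.

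No pairing of libraries by replicate number was seen: deviations of same-numbered libraries correlated at 0.0887, -0.00467, 0.000325 and -0.0922. With 4 libraries a group, this cannot show that the libraries were unpaired. With the replicate block, 2878 genes were higher and 2824 lower, and 3 of the 10 genes were lower. With 4 libraries a group, the intervals of Psph, Shmt1 and Asns do not exclude changes smaller than their bounds.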
